A study of Mus musculus with 24 samples.

Results

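The 39 protein-coding Hox genes of the mouse were examined in dental mesenchyme of the lower first molar. They were taken by symbol (Hox, a cluster letter from a to d, and a number) from the 56748 genes of the count table, with no use of their values: 11 lie in the Hoxa cluster on chromosome 6, 10 in Hoxb on chromosome 11, 9 in Hoxc on chromosome 15 and 9 in Hoxd on chromosome 2. The 24 libraries came from wild-type ICR embryos and formed 8 groups of 3. Mesenchyme, isolated from its epithelium according to the methods, was taken undivided (W) or as a lingual (L, tongue side) or buccal (B, cheek side) part. The stages were cap (E13, with Cap-W, Cap-L and Cap-B) and bell (E15, with Bell-W, Bell-L and Bell-B). The other 2 groups were cap-stage parts grown for a further 2 days in culture (Cap-L+2D, Cap-B+2D). The methods describe 36 embryos from 3 pregnant mice and name triplicate sequencing but also 2 biological replicates, so p-values here measure the spread between libraries, which may be technical.

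Hox genes encode homeodomain transcription factors that give cells of the trunk, limbs and hindbrain their position along the body axis. Within a cluster the genes stand in the order in which they are used from head to tail, with low numbers at the anterior end, and the genes of the same number in different clusters are called paralogs. Neural crest cells that fill the first pharyngeal arch, from which the lower jaw and the tooth mesenchyme come, are known for lacking Hox expression, and muscle, nerve and vessel cells enter the arch from other sources. The question was which of the 39 genes gave more than stray reads, and whether those differed between parts, stages and culture.

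Total counts per library ran from 20581720 to 39266497. A gene was held to be at the counting floor of a library at 3 counts or fewer, which is 0.0764 to 0.146 counts per 1000000 counts of the library (CPM) before TMM scaling. The jaw character of the tissue was plain: the 12 jaw and tooth mesenchyme markers summed to between 2163 and 4000 CPM in all libraries. The 8 epithelial markers summed to between 88.7 CPM, in Cap-B+2D, and 2056 CPM, in Bell-W, so RNA of these markers was present in every group. Cap-W 1 and Bell-W 3 stood apart from the other libraries of their groups over all genes, and Bell-W 3 did so in its Hox genes too.

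The genes on which the results turned were neighbours in the Hoxd cluster, so their promoters are shown (RefSeq, GRCm38.p6, 250 bases before to 50 after the gene start, plus strand, 5′ to 3′). In the build of the counts (GRCm39), all 3 lie on the plus strand of chromosome 2: Hoxd9 from 74528071 to 74530552, Hoxd8 from 74534959 to 74538277 and Hoxd4, with its long annotated transcripts, from 74542273 to 74559504. The windows, in the RefSeq build, are: Hoxd9 at chr2:74697513-74697812, Hoxd8 at chr2:74704365-74704664 and Hoxd4 at chr2:74721728-74722027. Capitals mark any match, on either strand, to 5 motifs. TATAAA is the core promoter element, TGATNNAT is bound by PBX with HOX proteins, TGACAG is bound by MEIS proteins, TAATTA is a homeodomain core, and CCATAAA is bound by CDX and posterior HOX proteins.
Hoxd9: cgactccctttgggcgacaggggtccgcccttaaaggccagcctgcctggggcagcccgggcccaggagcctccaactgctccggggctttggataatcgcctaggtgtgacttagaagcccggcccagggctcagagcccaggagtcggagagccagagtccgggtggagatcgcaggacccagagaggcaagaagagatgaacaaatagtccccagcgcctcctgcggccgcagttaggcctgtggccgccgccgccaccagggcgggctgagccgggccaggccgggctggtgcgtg
Hoxd8: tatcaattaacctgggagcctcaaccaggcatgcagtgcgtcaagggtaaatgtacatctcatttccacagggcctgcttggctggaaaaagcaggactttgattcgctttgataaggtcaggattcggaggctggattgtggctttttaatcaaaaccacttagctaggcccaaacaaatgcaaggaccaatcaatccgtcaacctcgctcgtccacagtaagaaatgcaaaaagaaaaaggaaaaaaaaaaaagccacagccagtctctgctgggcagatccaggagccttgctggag
Hoxd4: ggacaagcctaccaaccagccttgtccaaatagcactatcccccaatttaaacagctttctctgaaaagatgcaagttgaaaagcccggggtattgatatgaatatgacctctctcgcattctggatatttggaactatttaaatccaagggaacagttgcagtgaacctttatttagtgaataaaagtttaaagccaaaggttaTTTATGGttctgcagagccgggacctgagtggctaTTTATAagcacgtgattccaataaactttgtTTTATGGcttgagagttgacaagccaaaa
The Hoxd4 window held 1 match to TATAAA and 2 to CCATAAA, all on the reverse strand, none of them overlapping, while the Hoxd8 and Hoxd9 windows held none of the 5 motifs. Of 32851 mouse promoters of this length, 13.6% held TATAAA, 8.85% TGATNNAT, 19.2% TGACAG, 5.29% TAATTA and 2.75% CCATAAA. GC content was 68.3% for Hoxd9, 46.7% for Hoxd8 and 39.7% for Hoxd4. The matches describe letters in these windows and no binding was measured.

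Most Hox genes were not detectable above stray counts at this depth. Of the 39, 22 were at the floor in all 24 libraries, and Hoxa11 had 0 counts in every one. A further 7 passed the floor in 1 library each, which was Bell-W 3 for 5 of them (Hoxa3 and Hoxb3 had the most counts), Cap-B+2D 2 for Hoxa10 and Cap-B 3 for Hoxd1. The remaining 10 genes passed it in at least 2 libraries: Hoxb2, Hoxb4, Hoxb5, Hoxb9, Hoxc4, Hoxc5, Hoxd3, Hoxd4, Hoxd8 and Hoxd9. Only Hoxd4, Hoxd8 and Hoxd9 passed it in at least 12 libraries, and no Hox gene did so in all 24. Leaving out Bell-W 3, 27 of the 39 were at the floor throughout.

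The number at the floor in all 3 libraries of a group was 38 in Cap-W, 38 in Cap-L, 33 in Cap-B, 32 in Cap-L+2D, 31 in Cap-B+2D, 35 in Bell-L, 33 in Bell-B and 27 in Bell-W. Undivided and lingual cap mesenchyme thus had a single Hox gene, Hoxd8, above 3 counts in any library. These numbers use raw counts with no scaling for depth, and depth differed between groups. Cap-W held the library with the lowest total (20581720) and Cap-L+2D the one with the highest (39266497). The most 5′ Hoxd genes, Hoxd10 to Hoxd13, which pattern the limb and the tail end of the trunk, never exceeded 3 counts, nor did Hoxa13, Hoxb13 or Hoxc13.

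**Figure D1:**
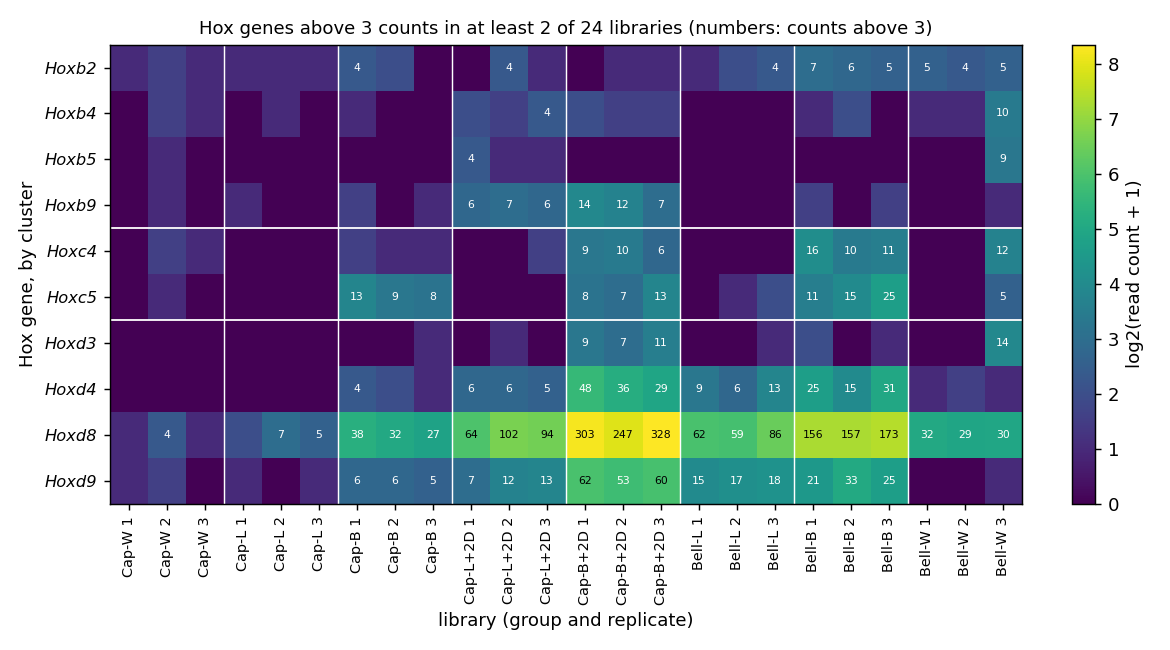
Read counts of the 10 Hox genes above 3 counts in at least 2 libraries (rows, by cluster, horizontal lines between clusters) in the 24 libraries (columns, vertical lines between groups), coloured by log2(count + 1), with counts above 3 printed. Hoxd8 forms the brightest row, up to 328 counts in Cap-B+2D 3, and Bell-W 3 is the library in which Hoxb4, Hoxb5 and Hoxd3 stand out from the other Bell-W libraries.

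Hoxd8, which in the embryo marks the trunk, gave most of the Hox reads in 5 of the 8 groups. It made up 51.3% of all Hox counts in Cap-B, 67.2% in Cap-L+2D, 65.9% in Cap-B+2D, 65.9% in Bell-L and 62.7% in Bell-B, against 10% of 60 counts in Cap-W, 42.9% of 35 counts in Cap-L and 36.5% of 249 counts in Bell-W. All Hox genes together came to between 0.292 and 14.2 CPM before TMM scaling. Per length, Hoxd8 ranged from a mean RPKM (CPM per kilobase of exon) of 0.0279 in Cap-W to 3.36 in Cap-B+2D. The median of the 12 jaw markers in RPKM was 2615 times the Hoxd8 level in Cap-W, 151 times in Cap-B and 16.7 times in Cap-B+2D. In Cap-B+2D, 67.8% of the 36576 genes with any count had a lower RPKM than Hoxd8.

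Hoxd8 counts were 1, 4 and 1 in Cap-W, 3, 7 and 5 in Cap-L, and 38, 32 and 27 in Cap-B. They were 64, 102 and 94 in Cap-L+2D and 303, 247 and 328 in Cap-B+2D. At the bell stage they were 62, 59 and 86 in Bell-L, 156, 157 and 173 in Bell-B, and 32, 29 and 30 in Bell-W. Scaled for depth, the means were 0.0766 CPM ± 0.0485 (SD, n = 3) in Cap-W, 0.160 ± 0.0463 in Cap-L, 1.11 ± 0.136 in Bell-W, 1.37 ± 0.326 in Cap-B, 2.45 ± 0.360 in Bell-L, 2.98 ± 0.562 in Cap-L+2D, 5.48 ± 0.331 in Bell-B and 9.23 ± 1.08 in Cap-B+2D. In this order the libraries of Cap-W and Cap-L overlapped, as did those of Bell-W and Cap-B and those of Bell-L and Cap-L+2D, while Bell-B and Cap-B+2D overlapped with no other group.

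Hoxd9, the next gene on the posterior side of Hoxd8, gave 1, 2 and 0 counts in Cap-W, 1, 0 and 1 in Cap-L and 6, 6 and 5 in Cap-B. It gave 7, 12 and 13 in Cap-L+2D, 62, 53 and 60 in Cap-B+2D, 15, 17 and 18 in Bell-L, 21, 33 and 25 in Bell-B, and 0, 0 and 1 in Bell-W. Its level was therefore lowest in the undivided and cap lingual mesenchyme and highest in the cultured buccal part, at 1.84 CPM ± 0.0872 (n = 3). Hoxd4, on the anterior side of Hoxd8 and known from the hindbrain and neck, had 0 counts in all libraries of Cap-W and Cap-L, 4, 3 and 1 in Cap-B, 6, 6 and 5 in Cap-L+2D and 48, 36 and 29 in Cap-B+2D. At the bell stage it had 9, 6 and 13 in Bell-L, 25, 15 and 31 in Bell-B, and 1, 2 and 1 in Bell-W. The exons of Hoxd4 share 52.3% of their bases with Hoxd3, Gm28230 or the antisense Hoxd3os1, and those of Hoxd3 share 62.8%. Such reads were not counted, so both genes are under-counted, whereas Hoxd8 and Hoxd9 share none.

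In the Hoxc cluster, the 2 most anterior genes stood out from the other 7, which stayed at the floor in every library. Hoxc5, a gene of the neck and upper trunk, had 13, 9 and 8 counts in Cap-B, 8, 7 and 13 in Cap-B+2D and 11, 15 and 25 in Bell-B. It had 0 counts in all libraries of Cap-L and Cap-L+2D, 0, 1 and 3 in Bell-L, 0, 1 and 0 in Cap-W, and 0, 0 and 5 in Bell-W. Hoxc4, its anterior neighbour, had 2, 1 and 1 counts in Cap-B, 9, 10 and 6 in Cap-B+2D and 16, 10 and 11 in Bell-B. Outside the buccal groups it had 0 counts in Cap-L and Bell-L, 0, 0 and 2 in Cap-L+2D, 0, 2 and 1 in Cap-W, and 0, 0 and 12 in Bell-W. Apart from Bell-W 3, both genes were above the floor in buccal libraries only. Hoxc5 shares 5.37% of its exon bases with Hoxc10, which lay at the floor throughout.

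**Figure D2:**
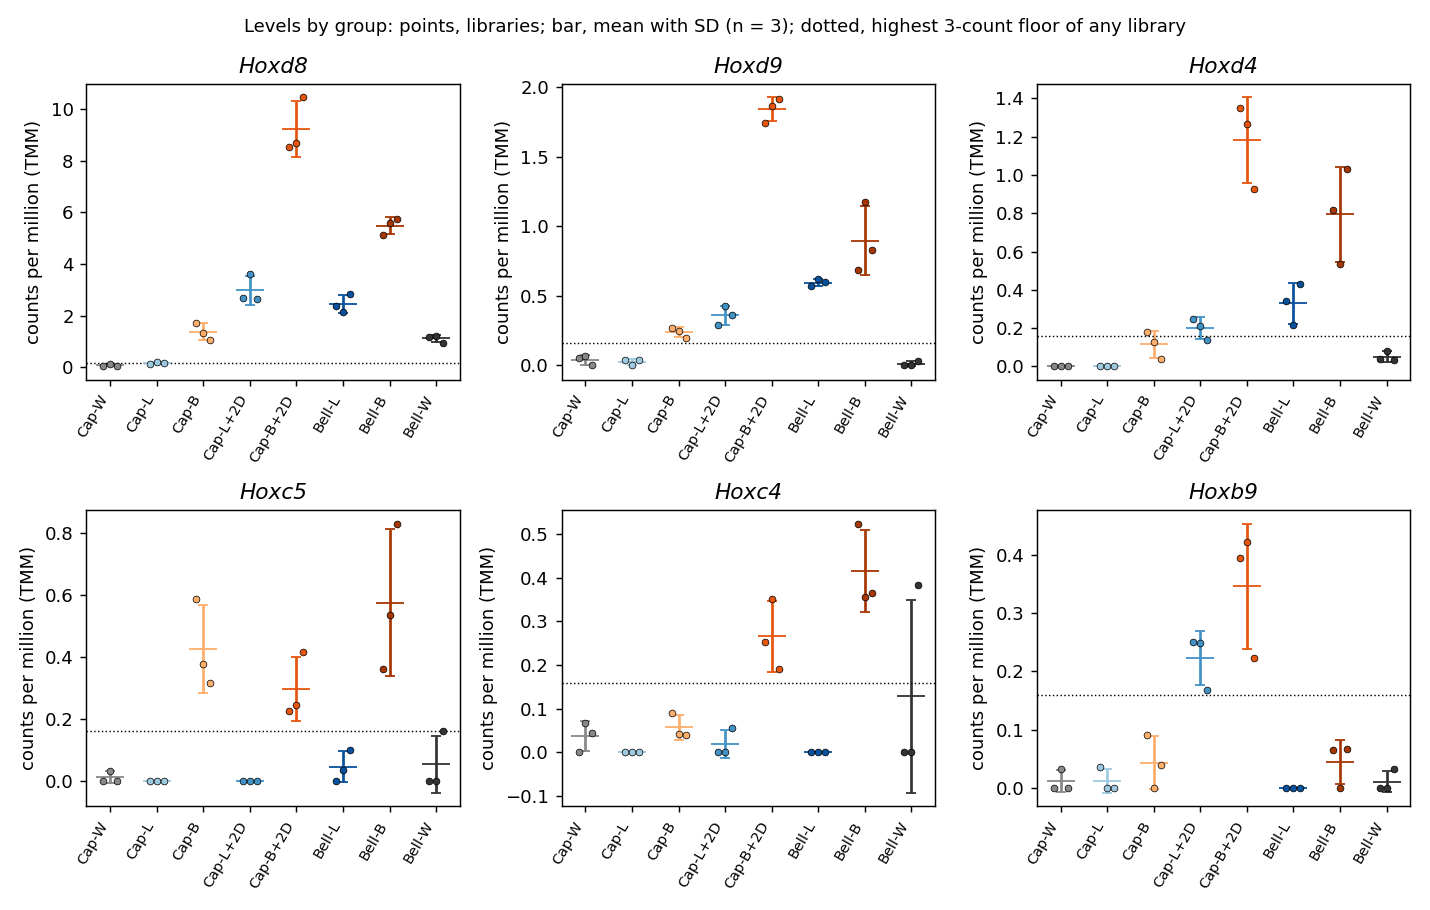
Level of 6 Hox genes in CPM after TMM scaling, by group; points are libraries, bars the mean with SD (n = 3), and the dotted line the highest 3-count floor of any library. Cap-B+2D is the highest group for Hoxd8, Hoxd9, Hoxd4 and Hoxb9, Bell-B for Hoxc4 and Hoxc5, and 1 Bell-W library lies above the floor for Hoxc4.

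Buccal parts had more Hoxd8 than lingual parts at the cap stage, at the bell stage and after culture. Each gene that passed a filter on low counts was tested with edgeR's quasi-likelihood test. It was called where the Benjamini-Hochberg adjusted p was under 0.05 and the log2 fold change exceeded 0.5 in size. Counts in a single group can carry a gene past this filter, so a Hox gene low elsewhere passed through the group where it was high. The numbers of tested Hox genes called, here and below, are thus partly set by the filter. They are no test against the share over all genes. At the cap stage only Hoxd8 of the 39 could be tested, and it was higher in Cap-B by 3.05 on the log2 scale (SE 0.34, adjusted p = 7.08e-07, edgeR), against 10.4% of the 20653 genes tested that were called higher in Cap-B. In these bulk samples, more cells with Hoxd8 RNA and more of it per cell cannot be told apart. Hoxc5, below the filter, went from 0 summed counts in Cap-L to 30 in Cap-B, at least 4.29-fold higher when the floor of 3 counts per library is put in place of 0. Hoxd9 had 2 summed counts against 17, a ratio of 10.9 (exact 95% interval 2.59 to 97.4, counting error only). Such ratios and bounds, here and below, were taken only for genes with few reads in the lower group and more in the other. That choice favours a difference, so they describe size and are no test.

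At the bell stage 4 of 5 Hox genes tested were called higher in Bell-B, beside 6% of 21181 genes called higher. Hoxd8 was higher by 1.15 (SE 0.13, adjusted p = 5.49e-10, edgeR), Hoxd4 by 1.25 (SE 0.34, adjusted p = 0.00262) and Hoxc5 by 3.48 (SE 0.58, adjusted p = 4.29e-06). Hoxc4 was also called (adjusted p = 5.69e-07, edgeR) and, against 0 counts in Bell-L, was at least 3.86-fold higher. Hoxd9 differed by 0.58 (SE 0.28, adjusted p = 0.103, edgeR) and was not called, although its libraries did not overlap, which was so for 45.5% of all genes tested.

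After 2 days in culture all 3 Hox genes tested were called higher in Cap-B+2D, beside 12.5% of 21195 genes. The differences were 1.63 for Hoxd8 (SE 0.12, adjusted p = 2.49e-11, edgeR), 2.31 for Hoxd9 (SE 0.24, adjusted p = 7.84e-09) and 2.58 for Hoxd4 (SE 0.32, adjusted p = 2.03e-07). Of the genes below the filter, Hoxc5 was at least 2.81-fold higher, Hoxc4 had a ratio of summed counts of 11.5 (exact 95% interval 2.87 to 100) and Hoxd3, which is active in the hindbrain and neck, 24.9 (4.10 to 1018). With no filter on low counts, 4 Hox genes were called at the cap stage (Hoxc5, Hoxd4, Hoxd8 and Hoxd9) and 6 after culture (the same 4 with Hoxc4 and Hoxd3). The share of all genes called with no filter is not given here, so these counts show only how the calls moved.

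From cap to bell, Hoxd8 rose in the undivided mesenchyme and in both parts. In undivided mesenchyme it was the only Hox gene tested and was higher in Bell-W by 3.69 (SE 0.49, adjusted p = 0.00273, edgeR), beside 10.3% of 20940 genes. Without Bell-W 3 the difference was 3.78 (adjusted p = 0.00733, edgeR), and without Cap-W 1 it was 3.51 (adjusted p = 0.00715). In the lingual part 2 of 2 genes tested were called higher in Bell-L, beside 14.2% of 21425 genes: Hoxd8 by 3.90 (SE 0.29, adjusted p = 3.09e-11, edgeR), and Hoxd9 with a ratio of 27.4 (exact 95% interval 7.19 to 232, edgeR adjusted p = 3.85e-07). Hoxd4, with 0 counts in Cap-L, was at least 3.33-fold higher in Bell-L.

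In the buccal part 4 of 5 genes tested were called higher in Bell-B, beside 12% of 21992 genes. Hoxd8 rose by 2.00 (SE 0.16, adjusted p = 1.73e-12, edgeR), Hoxd9 by 1.88 (SE 0.34, adjusted p = 2.35e-05), Hoxd4 by 2.78 (SE 0.45, adjusted p = 4.33e-06) and Hoxc4 by 2.80 (SE 0.56, adjusted p = 0.000105). Hoxc5 differed by 0.44 (SE 0.36, adjusted p = 0.331, edgeR) and was not called. Its counts in Cap-B and Bell-B overlapped.

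Culture of the cap-stage parts for 2 days went with higher Hoxd8 in both. In the lingual part 2 of 2 genes tested were called higher in Cap-L+2D, beside 19.6% of 21425 genes: Hoxd8 by 4.14 (SE 0.28, adjusted p = 1.67e-12, edgeR), and Hoxd9 with a ratio of 16.7 (exact 95% interval 4.27 to 144, edgeR adjusted p = 1.33e-05). Hoxd4 was at least 2.03-fold higher. In the buccal part 4 of 5 were called higher in Cap-B+2D, beside 17.9% of 21992 genes: Hoxd8 by 2.72 (SE 0.14, adjusted p = 1.51e-17, edgeR), Hoxd9 by 2.89 (SE 0.29, adjusted p = 1.50e-10), Hoxd4 by 3.32 (SE 0.41, adjusted p = 1.51e-08) and Hoxc4 by 2.11 (SE 0.62, adjusted p = 0.00346). Hoxc5 differed by -0.54 (SE 0.41, adjusted p = 0.247, edgeR) and was not called. With all 24 libraries in 1 fit the Hoxc4 difference was 2.13 with an adjusted p of 0.0816 (edgeR) and was no longer called.

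Hoxb9, a gene of the thoracic trunk, passed the floor after culture only. It had 6, 7 and 6 counts in Cap-L+2D and 14, 12 and 7 in Cap-B+2D, and 2 or fewer in each of the other 18 libraries. The ratio of summed counts was 19.9 in the lingual part (exact 95% interval 3.16 to 826) and 8.25 in the buccal part (2.59 to 42.1). Hoxb2, a hindbrain gene of paralog group 2, instead passed the floor in all libraries of Bell-B, with 7, 6 and 5 counts, and of Bell-W, with 5, 4 and 5, and in 3 of the other 18. Neither gene passed the filter on low counts in any comparison.

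The buccal excess of Hoxd8, as a fold, was smaller at the bell stage and after culture than at the cap stage. The difference between stages was -1.90 on the log2 scale (SE 0.37, adjusted p = 0.000193, edgeR interaction), and that between cultured and fresh parts was -1.42 (SE 0.41, adjusted p = 0.00688). The cap-stage fold of Hoxd8 rested on 3, 7 and 5 counts in Cap-L. In mean CPM its parts lay further apart at the bell stage and after culture. The means were 0.160 in Cap-L and 1.37 in Cap-B, 2.45 in Bell-L and 5.48 in Bell-B, and 2.98 in Cap-L+2D and 9.23 in Cap-B+2D. Of 4 Hox genes tested in each interaction, 2 were called with a lower buccal excess at the bell stage (Hoxd8 and Hoxd9, beside 18% of 21931 genes) and 1 after culture (Hoxd8, beside 19.5% of 22098 genes). For Hoxd9 the stage interaction rested on 2 counts in Cap-L and was lost without Cap-L 2 (adjusted p = 0.0777, edgeR). Hoxd4 and Hoxc5 were not called in either interaction, and both had 0 counts in Cap-L.

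The undivided mesenchyme had less Hoxd8 than the buccal part at the cap stage and than either part at the bell stage. These 4 comparisons were added after the values were seen. Cap-W lay below Cap-B by 3.93 on the log2 scale for Hoxd8 (log2 fold change -3.93, SE 0.44, adjusted p = 0.000890, edgeR), the only Hox gene tested, beside 13.2% of 20336 genes called lower in Cap-W. Against Cap-L no Hox gene passed the filter, so no count of calls was possible. Against Bell-L, 2 of 2 genes tested were lower in Bell-W, beside 4.53% of 21155 genes: Hoxd8 by a log2 fold change of -1.11 (SE 0.21, adjusted p = 0.0180, edgeR), and Hoxd9, which had 1 count in Bell-W against 50 (ratio 49.2, exact 95% interval 8.44 to 1983; edgeR adjusted p = 0.00391). The Hoxd8 call was lost when any Bell-L library was left out (adjusted p 0.0852 without Bell-L 1, 0.0679 without Bell-L 2 and 0.104 without Bell-L 3, edgeR) and with a replicate block (0.0716).

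Against Bell-B, 3 of 5 genes tested were lower in Bell-W, beside 4.74% of 21487 genes. Hoxd8 had a log2 fold change of -2.28 (SE 0.17, adjusted p = 0.000282, edgeR) and Hoxd4 one of -3.90 (SE 0.50, adjusted p = 0.00334), and Hoxd9 had 1 count against 79 (ratio 73.5, exact 95% interval 12.8 to 2940; edgeR adjusted p = 0.00202). Hoxc4 and Hoxc5 were not called with Bell-W 3 (adjusted p = 0.374 and 0.0596, edgeR) and were called lower without it (0.00192 and 0.00204). Hoxc5 was also called lower with Bell-W 3 kept in 3 other settings: by DESeq2 (adjusted p = 0.0258), with no filter on low counts (0.0321, edgeR) and with all 24 libraries in 1 fit (0.00481, edgeR). The proportions within the Hoxd cluster differed as well: for every 100 counts of Hoxd8 there were 24.2 of Hoxd9 in Bell-L, 16.3 in Bell-B and 1.10 in Bell-W, a description of summed counts with no test. For Hoxd8 and Hoxd9, every Bell-W library lay below every library of both parts. Such separation was common: between Bell-L and Bell-B it held for 45.5% of the 21181 genes tested. The share for Bell-W against the parts is not given here.

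Markers of other cell types moved with these differences. Of the 12 skeletal muscle markers, 9 of 10 tested were higher in Cap-B than in Cap-L, 11 of 12 in Bell-B than in Bell-L and 11 of 12 in Cap-B+2D than in Cap-L+2D, with median log2 differences of 3.94, 2.67 and 3.66 beside medians near 0 over all genes (-0.006, 0 and 0.001). Their summed level was 24.2 to 27.3 CPM in Cap-W, 32.9 to 34.9 in Cap-L, 279 to 297 in Cap-B, 359 to 382 in Cap-L+2D, 4370 to 4520 in Cap-B+2D, 134 to 142 in Bell-L, 1061 to 1090 in Bell-B and 9.99 to 17.9 in Bell-W. Schwann cell markers were higher in the buccal part for 6 of 6 tested at the cap stage, 5 of 6 at the bell stage and 3 of 3 after culture, and neuron markers for 2 of 6, 4 of 6 and 6 of 7. Over all genes, 10.4%, 6% and 12.5% were called higher in the buccal part in these comparisons and 7.1%, 6.88% and 12.5% lower. Epithelial markers were lower there for 6, 4 and 6 of 8, macrophage markers for 6 of 9 at the bell stage and 5 of 9 after culture, and endothelial markers for 7 of 8 after culture. In the stage interaction, the buccal difference was lower at the bell stage for 9 of 12 muscle, 8 of 9 macrophage and 5 of 7 erythroid markers. For neuron markers it was higher for 5 of 6 and lower for 1. In the culture interaction it was lower for 6 of 12 muscle markers (higher for 2) and 8 of 9 macrophage markers. It was also lower there for 6 of 8 endothelial and 6 of 8 epithelial markers (higher for 2 epithelial). Over all genes, 18% and 19.5% were called lower in these interactions. The part of these markers in the buccal Hox difference was not tested.

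With stage the muscle markers rose for 9 of 10 tested in the lingual and 11 of 12 in the buccal part, while Pax3 fell in each. In undivided mesenchyme none of 8 tested was called higher and Pax3 was called lower. Over all genes, 14.2%, 12% and 10.3% were called higher with stage in the lingual, buccal and undivided mesenchyme. With culture the muscle markers rose for 10 of 10 in the lingual and 12 of 12 in the buccal part, beside 19.6% and 17.9% of all genes. Macrophage markers rose with stage for 9 of 9 in the undivided, 9 of 9 in the lingual and 8 of 9 in the buccal mesenchyme, and with culture for 8 and 7 of 9. Erythroid markers rose with stage for 6 of 7, 6 of 7 and 5 of 7 in the same order, and 1 fell in each. Endothelial markers rose for 8 of 8 in the undivided mesenchyme and 1 of 8 in each part. Epithelial markers rose with stage for 2, 3 and 5 of 8 in the undivided, lingual and buccal mesenchyme, and 1 fell in the buccal part. With culture the erythroid markers fell for 7 of 7 in both parts. Endothelial markers fell for 3 of 8 in the lingual and 8 of 8 in the buccal part. Schwann markers fell for 5 of 6 in each, while Erbb3 rose in the buccal part. Epithelial markers fell for 4 of 8 (2 rose) in the lingual and 7 of 8 (1 rose) in the buccal part. Neuron markers fell for 4 of 7 (2 rose) in the lingual and 2 of 7 (3 rose) in the buccal part. Over all genes, 15.9% were called lower in Cap-L+2D and 16.6% in Cap-B+2D. The part of these markers in the Hox differences was not tested.

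The comparisons of undivided mesenchyme with the parts showed the muscle markers lower together with Hoxd8. They were lower for 9 of 10 tested in Cap-W than in Cap-B (median log2 difference -3.54), 9 of 10 in Bell-W than in Bell-L (-3.60) and 12 of 12 in Bell-W than in Bell-B (-5.16), beside medians of 0.020, 0.009 and 0.005 over all genes. Schwann markers were lower for 6 of 6, 1 of 6 and 5 of 6 in the same order. Endothelial markers were lower for 8, 3 and 0 of 8 and macrophage markers for 8, 5 and 0 of 9. Over all genes, 13.2%, 4.53% and 4.74% were called lower. In Cap-W against Cap-B, epithelial markers were higher for 6 of 8 and lower for 2. Erythroid markers were lower there for 4 of 7 and higher for 1. The part of these markers in the lower Hoxd8 of undivided mesenchyme was not tested.

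**Figure D3:**
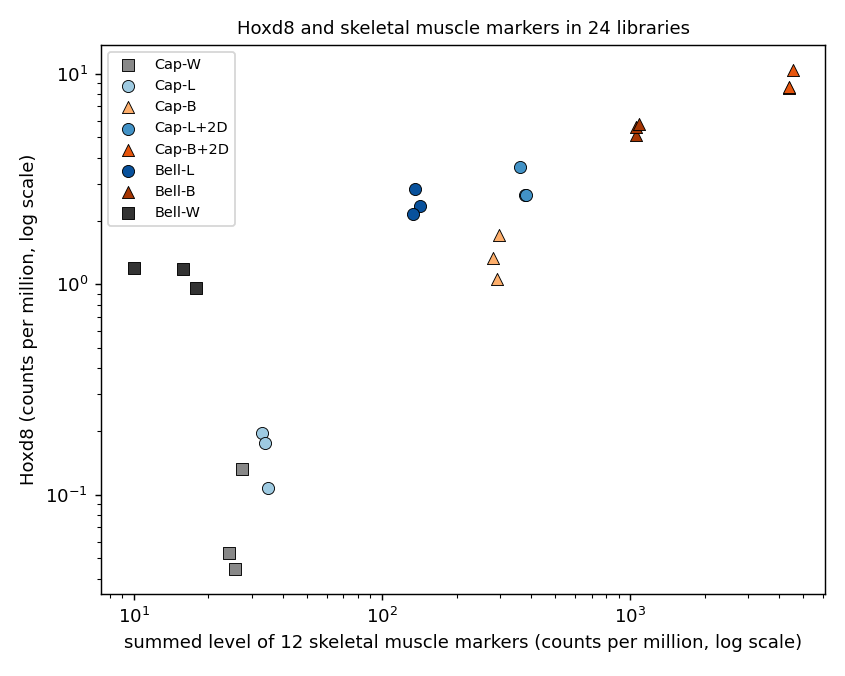
Hoxd8 level against the summed level of 12 skeletal muscle markers, both in CPM on log axes, 1 point per library (24), squares undivided, circles lingual, triangles buccal. The Cap-B+2D libraries are highest on both axes, and the 3 Bell-W libraries lie at the lowest muscle sums (9.99 to 17.9) with Hoxd8 near 1.11, above the Cap-W and Cap-L libraries.

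Bell-W 3 had a Hox profile unlike any other library. It had 30 Hox genes with at least 1 count, against 6 to 21 in the other 23 libraries (median 13), and 12 above the floor, against 8 at most elsewhere and 2 in Bell-W 1 or Bell-W 2. Counts in Bell-W 1, 2 and 3 were 0, 1 and 22 for Hoxa3, 0, 0 and 14 for Hoxb3, 0, 0 and 14 for Hoxd3, 1, 1 and 10 for Hoxb4 and 0, 0 and 9 for Hoxb5. Hoxa2, a gene of the second pharyngeal arch, had 6 counts in Bell-W 3 and 0 or 1 in each of the other 23 libraries. These are genes of the hindbrain, neck and pharyngeal arches behind the first. The 15 genes of paralog groups 1 to 5 held 70% of its Hox counts, against 9.09% to 50% in the other libraries. Hoxd8, by contrast, was level among the 3 libraries, and Hoxd4 and Hoxd9 had 1 count each in Bell-W 3.

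Neuron markers were also high in Bell-W 3, with 5 of 8 above every other library. Elavl3, an RNA-binding protein of neurons, stood at 0.185, 0.124 and 16.7 CPM in Bell-W 1, 2 and 3, and Stmn2 at 2.22, 2.93 and 35.2 CPM. All 8 epithelial markers were above every other library as well, and their sum was 2056 CPM against 475 and 551 in the other Bell-W libraries. None of the muscle, Schwann, endothelial, macrophage or erythroid markers was. It was so for 2 of 12 jaw markers, and among the genes described below for 2 of 9 Hox cofactors and 8 of 47 other cluster genes. The same held for 1 of 21 Polycomb and Trithorax genes and 1 of 6 axial regulators. Bell-W 3 stood apart over all genes, and the share of all genes highest in it is not given here. The part of neurons or epithelium in the Hox counts of this library was not tested.

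**Figure D4:**
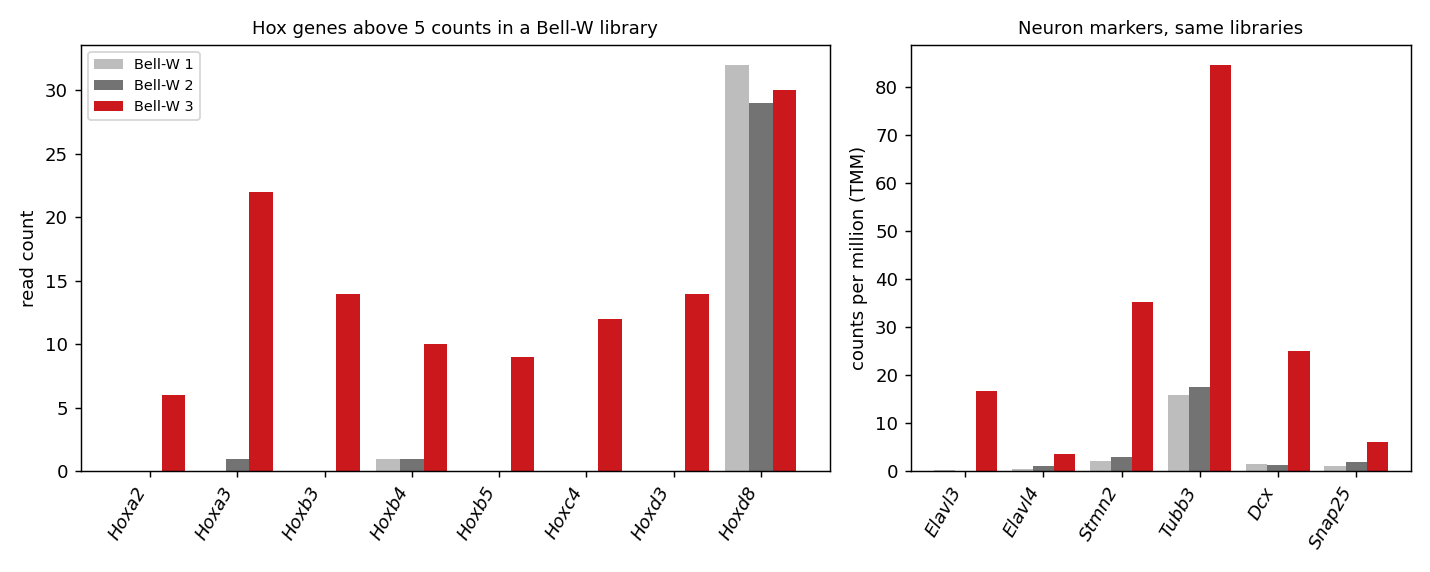
Left, read counts of the 8 Hox genes above 5 counts in any Bell-W library (bars by library); right, 6 neuron markers in CPM in the same libraries. Bell-W 3 alone is above 5 counts for 7 of the 8 genes, while Hoxd8 is 32, 29 and 30.

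Of the 47 other genes that lie inside the 4 clusters, few were measurable, and those of the Hoxd cluster that were called rose in comparisons in which Hoxd4 also rose. Hoxd3os1, a long noncoding gene antisense to the start of Hoxd3 and Hoxd4, had 3, 7 and 1 counts in Bell-L and 14, 10 and 17 in Bell-B, and 6, 5 and 5 in Cap-L+2D against 45, 31 and 41 in Cap-B+2D. It was called higher in Bell-B than in Bell-L (log2 fold change 1.78, SE 0.48, adjusted p = 0.00259, edgeR) and higher in Cap-B+2D than in Cap-L+2D (2.71, SE 0.31, adjusted p = 5.16e-08). Gm28230, which overlaps both Hoxd3 and Hoxd4, rose in the buccal part with stage (2.89, SE 0.83, adjusted p = 0.00422, edgeR) and with culture (3.85, SE 0.70, adjusted p = 1.36e-05). The counting took no account of strand, so reads over exon bases that Hoxd3 or Hoxd4 shares with the antisense gene were left out whichever of them they came from. In the Hoxb cluster the long noncoding gene Gm53, next to Hoxb9, had 10, 11 and 6 counts in Cap-B and 0 in every Cap-L, Cap-W and Bell-W library, and 4, 11 and 7 in Cap-L+2D against 13, 16 and 15 in Cap-B+2D. The processed pseudogene Gm11539, between 273 and 555 counts in all libraries, was called in no comparison.

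HOX proteins bind DNA with TALE-class partners, the PBX, MEIS and PKNOX (PREP) proteins, and these were expressed throughout at a sum of 446 to 724 CPM. Of the 9 genes, 2 were lower and 1 higher in the buccal part in each of the 3 comparisons of parts, and these were Meis2, Pbx3 and Pknox2. Over all genes, 7.1%, 6.88% and 12.5% were called lower and 10.4%, 6% and 12.5% higher at the cap stage, at the bell stage and after culture. Meis2 was 80.2, 76.4 and 78.1 CPM in Cap-L against 25.9, 27.3 and 24.4 in Cap-B, 85.0, 91.3 and 86.1 in Cap-L+2D against 12.3, 12.3 and 11.3 in Cap-B+2D, and 44.1, 42.6 and 42.1 in Bell-L against 8.61, 7.30 and 8.17 in Bell-B. The log2 differences were -1.57 at the cap stage (SE 0.06, adjusted p = 5.85e-14, edgeR), -2.42 at the bell stage (SE 0.06, adjusted p = 1.22e-30) and -2.88 after culture (SE 0.05, adjusted p = 6.94e-24). Pbx3 was lower in the buccal part by -0.83, -0.77 and -1.23 in the same order, and Pknox2 higher by 1.65, 1.57 and 2.81.

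**Figure D5:**
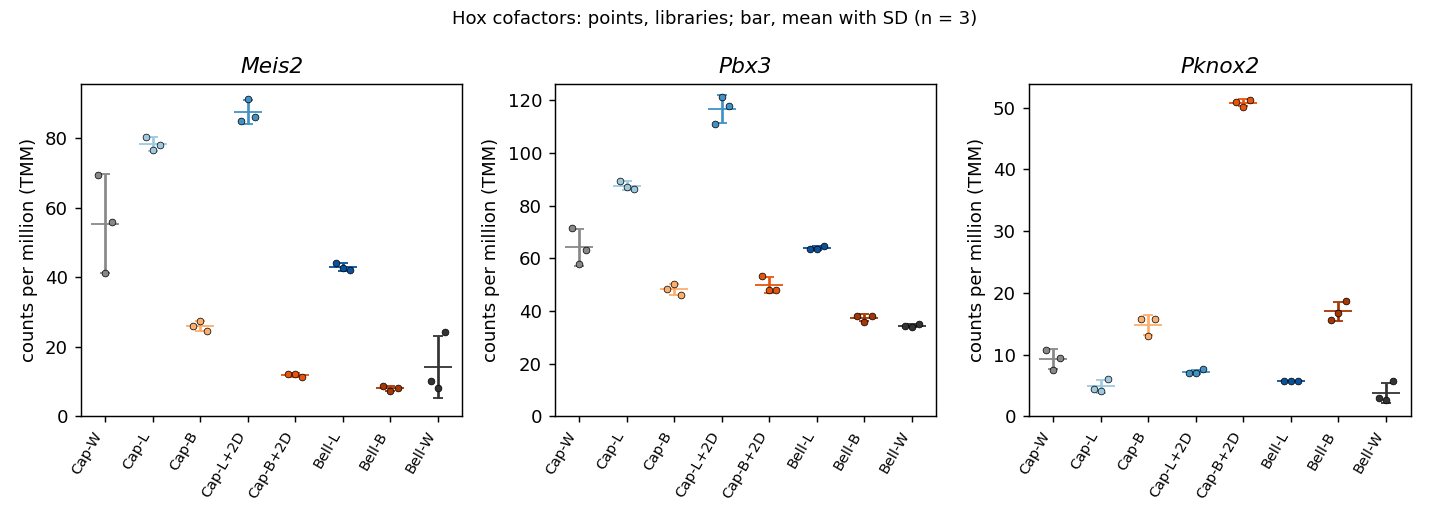
Level of 3 Hox cofactor genes in CPM by group; points are libraries and bars the mean with SD (n = 3). Meis2 and Pbx3 are lower and Pknox2 higher in each buccal group than in its lingual partner.

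Polycomb and Trithorax proteins keep Hox genes silent or active through chromatin. All 21 genes of this list were tested, and 2, 0 and 3 were called higher in the buccal part at the cap stage, bell stage and after culture, with none lower, beside 10.4%, 6% and 12.5% of all genes called higher. From cap to bell 1 rose and 3 fell in the undivided mesenchyme and none was called in either part, beside 10.3% of all genes called higher and 4.21% lower in Bell-W. With culture 1 rose and 4 fell in the lingual and 1 rose and 3 fell in the buccal part, beside 19.6% and 17.9% of all genes called higher and 15.9% and 16.6% lower. Among the 6 axial regulators, the Cdx genes, which switch on trunk Hox genes in the early embryo, stayed at or near 0, at 0.223 CPM at most. Egr2, a hindbrain regulator of Hox genes that Schwann cells also use, rose with culture in each part and was called in no comparison between parts.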

How the data were processed

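The authors deposited 1 table of raw read counts per gene for the 24 libraries, made with featureCounts 2.0.0 per the file headers: paired reads over exons of Ensembl release 107 (GRCm39), with no strand setting and without reads that map to several places or overlap several genes. The aligner is given as STAR 2.7.1a in the methods and as Bowtie 1.2.3 in the submitters' processing notes. Symbols were taken from Ensembl release 116 for 56017 of 56748 gene IDs.

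Counts were scaled by TMM (edgeR 4.0.16, R 4.3.3) and filtered with filterByExpr. Each comparison was fitted with edgeR's quasi-likelihood test over its own groups (each part's stage and culture comparisons shared 1 fit, and so the cap-stage libraries), with Benjamini-Hochberg adjustment over all genes tested and calls where adjusted p was under 0.05 and the log2 fold change exceeded 0.5 in size. Interactions needed only the adjusted p. The scripts were tested on simulated data. Groups summing to 1 to 3 counts were compared by exact 95% intervals of summed counts, and groups at 0 through the floor of 3 counts per library. Both were taken only where the other group had more summed reads, a choice that favours a difference. Both cover counting error only. Every one of the 39 genes was accounted for, with values in every library for those called, above the floor in at least 12 libraries, or on the list of PCR primers of the study (Hoxd4, Hoxd8). Hoxa2, Hoxb2, Hoxb9, Hoxd3 and the genes described for Bell-W 3 were given their values after these were seen. The members and lists were chosen with earlier results of these data known. Values of some genes are not reported here.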

Additional observations from a re-analysis of the deposited data

Results flagged for a closer look

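The difference between the buccal and the lingual part depended on the stage for 2 Hox genes and on culture for 1, each by an interaction term in edgeR's quasi-likelihood fit. For Hoxd8 the log2 difference between parts was lower by -1.90 at the bell stage than at the cap stage (adjusted p = 0.000193, 1.39e-05 to 0.00188 over 17 alternatives) and lower by -1.42 after culture than in fresh cap parts (adjusted p = 0.00688, 0.00177 to 0.0353 over 17 alternatives). In each case all 3 buccal libraries were above all 3 lingual ones under both conditions. Such separation was common: 45.5% of the 21181 genes tested between Bell-L and Bell-B did not overlap. The cap-stage fold of Hoxd8 rested on 3, 7 and 5 counts in Cap-L, and in mean CPM its parts lay further apart at the bell stage and after culture. For Hoxd9 the stage interaction was -2.66 (adjusted p = 0.0131, 0.00705 to 0.0777 over 17 alternatives), with 2 counts in all of Cap-L, so that its size rests on that group's few reads.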

How the results depend on the processing

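Direction was kept in every one of the 559 refits of a Hox gene in a comparison (40 gene and comparison pairs), and 546 of them stayed on the same side of the threshold, with 7 losing and 6 gaining a call. The counts of called Hox genes moved mainly with the filter on low counts. Shares of all genes called in these other settings are not given here, so the counts show only how the calls moved. With no filter, 4 were called between parts at the cap stage, 6 between parts after culture, 4 for culture of the lingual part and 2 between Cap-W and Cap-B. With at least 10 counts required in every library, 0 remained testable between parts at the cap stage, for stage in the undivided and lingual mesenchyme, for culture of the lingual part, in both interactions and between Cap-W and Cap-B, and 1, Hoxd8, was called between parts at the bell stage and after culture, for stage and culture of the buccal part and between Bell-W and either part. With all 24 libraries in 1 fit, 4 were called between parts at the cap stage, 5 between parts after culture, 4 between Cap-W and Cap-B and 4 between Bell-W and Bell-L. DESeq2 called 1 in the stage interaction, Hoxd8. Leaving out single libraries gave 1 to 2 calls between parts at the cap stage (2 without Cap-B 3), 1 to 3 in the stage interaction, 1 to 2 between Bell-W and Bell-L and 3 to 5 between Bell-W and Bell-B. At a floor of 0 counts 1 gene was at the floor throughout, and at 10 counts 30 were.

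Same-numbered libraries did not deviate together (mean correlation of deviations -0.063 to 0.083 over 8 comparisons), so the numbers were not used as pairs; each library correlated best with its own number in 2 of the 8. The replicate block changed 1 call, Hoxd8 between Bell-W and Bell-L, leaving 1 Hox gene called there (-1.11, adjusted p = 0.0716, edgeR). Over all genes it moved the calls between Bell-W and Bell-L from 1568 to 929 and by less than 1.5 times elsewhere.

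The level per length of Hoxd4 in Cap-B+2D, 0.401 RPKM, was 0.840 over exon bases that no other gene shares, and that of Hoxd3 was 0.182 in place of 0.0677. The floor of 3 counts reached 0.146 CPM before and 0.159 CPM after TMM scaling (both in Cap-W 1), and a gene under it was not detectable at this depth, which does not show that it was absent.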
